A study of Homo sapiens with 12 samples.

Results

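A set of 10 genes for transcription factors of the T-cell lineage was followed in Jurkat, an established human cell line from a T-cell leukaemia, in which TAL1 is active. They were TCF7, LEF1, BCL11B, BCL11A, IKZF1, IKZF2, IKZF3, TOX, SATB1 and ETS1. The set was chosen by name, with earlier results of these data known, and matched to Ensembl identifiers. All 10, of 33704 genes with a read in any library, were present in each of the 3 deposited count tables. The 12 messenger RNA libraries formed 6 groups of 2. In TAL1-KD, cells with a doxycycline-inducible shRNA against TAL1 received doxycycline at 5 µg/ml for 72 h, and in TAL1-control the same line received none. UTX-KD and UTX-control had the same design with an inducible shRNA against UTX, the histone demethylase encoded by KDM6A. In J4-2uM, Jurkat cells received GSK-J4, a small-molecule inhibitor of KDM6 demethylases, at 2 µM for 72 h, and in J4-control they received the vehicle DMSO for the same time. The shRNA lines were kept in Tet-free serum with blasticidin and G418, whereas the GSK-J4 and vehicle cells had ordinary serum without either drug. No group received doxycycline without an inducible hairpin, so an effect of doxycycline itself and one of the hairpin cannot be told apart. The labels do not say whether a line was 1 clone, nor whether replicates were separate cultures, so p-values measure only the spread between these samples.

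T-lineage identity is set up in the thymus by a small network of DNA-binding proteins. TCF7 and LEF1 are HMG-box factors that act downstream of Notch and of Wnt with β-catenin, and that recruit TLE corepressors in its absence. BCL11B is a zinc-finger factor needed for commitment to the T lineage, and its relative BCL11A serves B-cell and early lymphoid development. The Ikaros family members IKZF1 (Ikaros), IKZF2 (Helios) and IKZF3 (Aiolos) are zinc-finger factors that pair with one another and with the NuRD complex, and IKZF1 is a tumour suppressor in acute lymphoblastic leukaemia. TOX is an HMG-box factor needed for the CD4 lineage and linked to T-cell exhaustion, SATB1 organises thymocyte chromatin, and ETS1 acts at T-cell receptor enhancers. TAL1 binds E-box motifs in pairs with E proteins and is silent in normal T cells.

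Counted reads per library ran from 55524079 to 82534711. Each targeted message was not shown to be lower in the libraries labelled as its own knockdown. TAL1 had 252 and 278 CPM (read counts scaled to a common library size by TMM over the 12 libraries) in TAL1-KD and 272 and 276 CPM in TAL1-control. KDM6A had 29.6 and 29.8 CPM in UTX-KD and 30.8 and 31.2 CPM in UTX-control. Their log2 fold changes were -0.07 for TAL1 (edgeR adjusted p = 0.490) and -0.08 for KDM6A (adjusted p = 0.103), so those comparisons are described by their labels only. In the other comparisons, TAL1 was lower with GSK-J4 (-0.66, edgeR adjusted p = 6.02e-10) and in UTX-KD (-0.12, adjusted p = 0.00155). KDM6A was higher with GSK-J4 (0.44, edgeR adjusted p = 1.24e-07) and did not pass in TAL1-KD (0.19, adjusted p = 0.0576). Of 11 T-cell markers, 10 exceeded 10 CPM in all 12 libraries, and the B-cell genes MS4A1 and PAX5 were below 1 CPM in each. Summed T-cell markers were at 3836 to 4505 CPM in TAL1-KD and 3046 to 3179 CPM in TAL1-control, at 3154 to 3220 CPM in UTX-KD and 2792 to 2828 CPM in UTX-control, and at 2021 to 2075 CPM in J4-2uM and 2121 to 2123 CPM in J4-control. Of these 11 markers, 4 rose and 6 fell with GSK-J4, 4 rose and 0 fell in TAL1-KD, and 8 rose and 2 fell in UTX-KD (edgeR, adjusted p under 0.05). With libraries scaled by their totals alone these were 6 and 4, 2 and 1, and 9 and 0. The shares over all genes are given below. Summed B-cell markers, nearly all CD79A, were at 84.5 to 93.6 CPM in J4-2uM and 41.9 to 42.4 CPM in J4-control, at 61.6 to 63.5 CPM in UTX-KD and 42.8 to 43.4 CPM in UTX-control, and at 73.5 to 77.2 CPM in TAL1-KD and 79.1 to 80.7 CPM in TAL1-control. Of 6 myeloid and 6 erythroid markers, 5 each were below 1 CPM in all 12 libraries, and 4 markers of NK cells summed to at most 15.9 CPM. Of those tested, CEBPA, the remaining myeloid marker, fell in TAL1-KD (-0.65 ± 0.22 on the log2 scale, edgeR adjusted p = 0.0379), and ITGA2B, the remaining erythroid and megakaryocytic one, fell there (-1.43 ± 0.17, adjusted p = 0.000715) and rose with GSK-J4 (1.19 ± 0.11, adjusted p = 3.55e-07). Of the 4 NK markers 3 rose and 1 fell with GSK-J4, 1 rose and 1 fell in TAL1-KD and 1 rose in UTX-KD. The 2 TAL1-KD libraries differed more from each other than any other pair: their log2 differences over genes had an SD of 0.218, against 0.102 in TAL1-control and 0.0849 to 0.0970 in the J4 and UTX groups. The part of these shifts in the results below was not tested. In bulk RNA, fewer cells of a type and less RNA per cell cannot be told apart.

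Promoter sequences are shown because TAL1, TCF7 and LEF1, and the Ikaros factors each bind short DNA motifs. Promoter windows, from 250 bases before to 50 bases after a RefSeq start on GRCh38.p14, were listed for 7 of the 10 genes, namely TCF7, LEF1, BCL11B, BCL11A, IKZF1, IKZF2 and SATB1. The first listed windows of IKZF1, TCF7 and BCL11B are printed because these 3 genes had the largest falls with GSK-J4, and that of LEF1 because it is the relative of TCF7 with the smaller fall. Each reads 5′ to 3′ on the strand of the gene, with matches in capitals to the E-box CAGNTG, the TCF/LEF core CTTTG and the Ikaros core GGGAA on either strand. Windows were at chr7:50304466-50304765 on the plus strand for IKZF1, at chr5:134115363-134115662 on the plus strand for TCF7, at chr14:99272148-99272447 on the minus strand for BCL11B and at chr4:108166252-108166551 on the minus strand for LEF1.
IKZF1: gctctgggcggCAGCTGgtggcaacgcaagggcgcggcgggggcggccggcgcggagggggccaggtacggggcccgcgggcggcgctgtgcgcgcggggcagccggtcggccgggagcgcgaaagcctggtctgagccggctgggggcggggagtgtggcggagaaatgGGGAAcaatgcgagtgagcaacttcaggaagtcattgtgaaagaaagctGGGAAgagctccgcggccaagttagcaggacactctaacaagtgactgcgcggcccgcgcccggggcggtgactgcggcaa
TCF7: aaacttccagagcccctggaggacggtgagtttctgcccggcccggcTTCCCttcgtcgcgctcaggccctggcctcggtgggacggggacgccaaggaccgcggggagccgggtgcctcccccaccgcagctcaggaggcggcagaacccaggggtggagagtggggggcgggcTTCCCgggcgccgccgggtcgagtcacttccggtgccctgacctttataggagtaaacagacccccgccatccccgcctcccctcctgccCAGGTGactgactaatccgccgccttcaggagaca
BCL11B: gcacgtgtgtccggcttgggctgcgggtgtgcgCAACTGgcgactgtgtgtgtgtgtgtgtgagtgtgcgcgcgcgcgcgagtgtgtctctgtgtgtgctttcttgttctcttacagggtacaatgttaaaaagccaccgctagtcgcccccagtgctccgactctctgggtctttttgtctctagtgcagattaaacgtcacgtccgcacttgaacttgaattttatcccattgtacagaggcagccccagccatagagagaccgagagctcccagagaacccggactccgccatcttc
LEF1: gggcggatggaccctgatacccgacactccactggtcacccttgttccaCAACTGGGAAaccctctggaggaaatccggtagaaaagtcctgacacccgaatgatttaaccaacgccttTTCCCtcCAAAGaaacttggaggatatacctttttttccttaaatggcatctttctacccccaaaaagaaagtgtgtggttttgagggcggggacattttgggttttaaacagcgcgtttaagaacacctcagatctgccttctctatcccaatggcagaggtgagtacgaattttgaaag

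All 4 windows held 1 E-box. IKZF1, TCF7 and LEF1 each held 2 Ikaros cores, whereas the BCL11B window held none. Of the 4 printed windows, that of LEF1 alone held a TCF/LEF core, and its E-box overlapped an Ikaros core by 1 base. Later listed windows, not printed, held this core as well: 2 in window 2 of TCF7, and 1 each in windows 2 and 3 of IKZF1. The GC content was 71.0% for IKZF1, 69.7% for TCF7, 55.7% for BCL11B and 47.0% for LEF1, against a median of 58.7% over 35116 RefSeq promoters. Among the first listed windows of the 7 genes, 6 held an E-box, 5 an Ikaros core and 3 a TCF/LEF core. These short motifs are common: 49.9%, 65.0% and 47.5% of all promoters of the same length held the E-box, the Ikaros core and the TCF/LEF core. A match is a description of the letters and not a binding site.

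Per transcript length, LEF1 and TCF7 stood at the top of the list and IKZF3 at the bottom. LEF1 averaged 384 RPKM in TAL1-KD, 360.4 RPKM in TAL1-control, 303 RPKM in UTX-KD, 290.2 RPKM in UTX-control, 212 RPKM in J4-2uM and 278 RPKM in J4-control (n = 2 each; CPM per kilobase of the longest GENCODE transcript). TCF7 came next with 166 to 222 RPKM in 5 of the groups, while in J4-2uM it averaged 98.2 RPKM and stood below ETS1 at 110.2 RPKM. ETS1 followed, then IKZF1 and TOX, with TOX above IKZF1 in TAL1-KD and J4-2uM. After these came SATB1, BCL11B and IKZF2 with between 10.9 and 32.5 RPKM in all groups. Of these, IKZF2 stood above BCL11B in J4-2uM and J4-control. BCL11A averaged 3.54 RPKM in TAL1-KD and at most 8.43 RPKM, in UTX-control. IKZF3 averaged 0.381 to 1.23 RPKM. By mean CPM it lay above 43.3% of the genes that passed the expression filter (filterByExpr) over the 12 libraries, whereas LEF1 and TCF7 each lay above 99.7%. Neighbours in the order did not overlap between libraries in any group, but their order depended on the length used: with the union of exons BCL11B stood above SATB1 in all 6 groups, and with the longest transcript in TAL1-KD alone. TOX likewise stood above IKZF1 in all 6 groups with the union of exons. The LEF1, TCF7 and TOX exons overlap a gene on the opposite strand. For LEF1 it is the antisense gene LEF1-AS1, with 336 to 824 reads per library. For TCF7 it is SKP1, with 9979 to 26109 reads per library, against 39770 to 94532 for TCF7. For TOX it is an antisense gene with 950 to 1547 reads, against 7318 to 15171 for TOX. With no strand setting given for the counting, reads from such partners cannot be told apart.

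**Figure D1:**
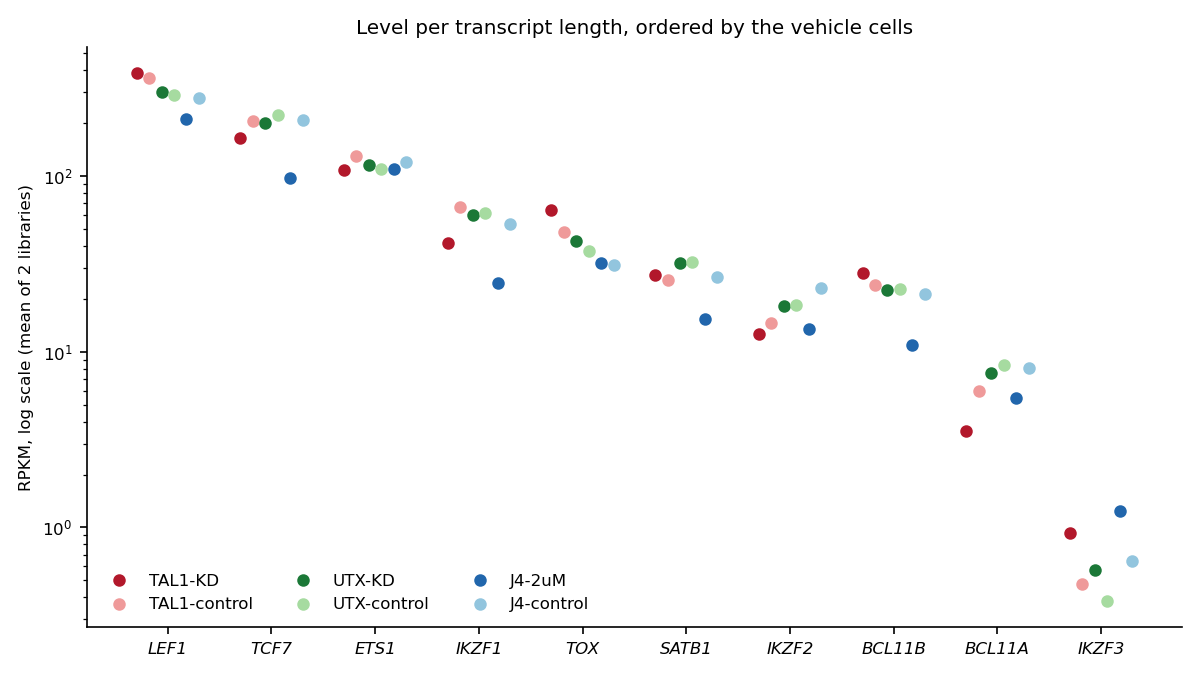
Level of each factor per kilobase of its longest transcript, on a log scale. Points are means of 2 libraries, with each treated group left of its control. LEF1 was highest in all 6 groups, and IKZF3 was lowest, at 1.23 RPKM or less.

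With GSK-J4, 8 of the 10 genes fell, 1 rose and 1 did not pass the test. IKZF1 and TCF7 fell most, to 0.459-fold and 0.470-fold of the vehicle level, and BCL11B fell to 0.514-fold. IKZF3 was the gene that rose, to 1.93-fold, and TOX was the gene that did not pass. Over all genes tested, 36.9% were lower and 37.9% higher (edgeR, adjusted p under 0.05), so the falls were above the background share and the rises below it. The genes were chosen with earlier results of these data known, so this contrast is a description only. The median log2 fold change of the 10 genes was -0.67, and over all genes it was 0.01.

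In the libraries labelled TAL1-KD, 4 genes fell, 2 rose and 4 did not pass the test. BCL11A, at 0.585-fold, and IKZF1, at 0.618-fold, were the larger falls, and TCF7 and ETS1 the smaller ones. IKZF3 rose to 1.94-fold and TOX to 1.30-fold. Fits with a library left out take the spread from the groups that keep both. As the 2 TAL1-KD libraries differed most from each other, calls in such fits depend on which library is removed. They do not measure support for a change. Background calls were 27.9% lower and 26.3% higher, so neither count was far from the background, and the median log2 fold change was -0.09 for the 10 genes and -0.02 for all genes.

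In the libraries labelled UTX-KD, 2 genes rose, 2 fell and 6 did not pass. IKZF3 rose to 1.48-fold and TOX to 1.13-fold, while TCF7 fell to 0.891-fold and BCL11A to 0.880-fold. Background calls were 25.2% higher and 25.3% lower, and the median size of change was 0.06 on the log2 scale for the 10 genes and 0.19 for all genes. Apart from IKZF3, each of the 10 genes changed by less than 0.20 on that scale. The counts of 2 in each direction were close to the background shares.

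**Figure D2:**
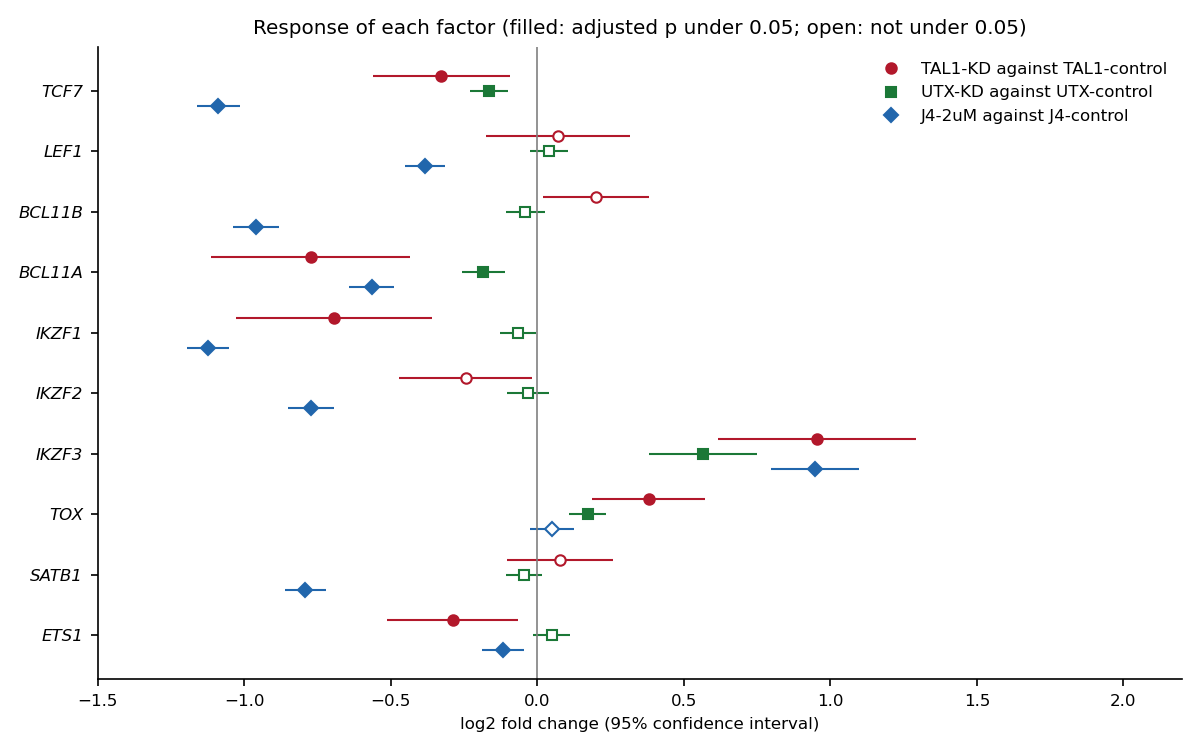
Log2 fold change of each factor in the 3 comparisons, with 95% confidence intervals from edgeR. Filled symbols had an adjusted p under 0.05. The GSK-J4 values lie between -1.12 for IKZF1 and 0.95 for IKZF3, and UTX-KD values other than that of IKZF3 lie near 0.

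TCF7, the HMG-box factor that opens the T-cell programme, was lower in all 3 comparisons. It had 538 and 511 CPM in J4-2uM, against 1109 and 1129 CPM in J4-control. It had 907 and 863 CPM in TAL1-KD and 1089 and 1098 CPM in TAL1-control, and 1085 and 1057 CPM in UTX-KD and 1178 and 1189 CPM in UTX-control. In each comparison both treated libraries lay below both controls. With 2 libraries against 2, the smallest two-sided exact permutation p is 0.333, so such separation alone is weak, here and for other genes and ratios. LEF1, BCL11B and SATB1 were separated in TAL1-KD without passing the test, and the share over all genes was not counted. The log2 fold change was -1.09 ± 0.03 with GSK-J4 (SE, edgeR adjusted p = 1.02e-11), -0.33 ± 0.10 in TAL1-KD (adjusted p = 0.0267) and -0.17 ± 0.03 in UTX-KD (adjusted p = 0.000252). The TAL1-KD call was lost without TAL1-control replicate 1 or 2, where the spread came from the TAL1-KD pair alone and the value stayed at -0.33. The UTX-KD call was lost in a fit over all 12 libraries, at an edgeR adjusted p of 0.0576, the upper end of a range that began at 1.77e-11.

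LEF1, the closest relative of TCF7 and a partner of β-catenin, fell with GSK-J4 and passed the test in neither shRNA comparison. It had 748 and 728 CPM in J4-2uM and 967 and 966 CPM in J4-control, with no overlap, a log2 fold change of -0.38 ± 0.03 (edgeR adjusted p = 1.05e-07). In TAL1-KD it had 1287 and 1386 CPM against 1238 and 1269 CPM in TAL1-control, a difference of 0.07 with a 95% interval of -0.18 to 0.32 (edgeR adjusted p = 0.5997). In UTX-KD it had 1057 and 1050.4 CPM against 1005 and 1013 CPM in UTX-control (log2 fold change 0.04, interval -0.02 to 0.10). It passed there as a rise when libraries were scaled by their totals alone (0.13, edgeR adjusted p = 0.000620, 0.000620 to 0.629 over its alternatives), and the GSK-J4 fall was then -0.21, still called.

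The balance between these 2 related factors differed between treated and control libraries in each comparison. The ratio of TCF7 to LEF1 per transcript length, which does not depend on how libraries are scaled, was 0.468 and 0.457 in J4-2uM and 0.747 and 0.761 in J4-control. It was 0.459 and 0.405 in TAL1-KD and 0.573 and 0.563 in TAL1-control, and 0.669 and 0.655 in UTX-KD and 0.763 and 0.764 in UTX-control. Treated libraries were thus below their controls in all 3 comparisons, without overlap. The ratio itself was not tested.

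BCL11B, the commitment factor, fell with GSK-J4. It had 84.5 and 80.8 CPM in J4-2uM and 158 and 165 CPM in J4-control, a log2 fold change of -0.96 ± 0.04 (edgeR adjusted p = 4.73e-11). In TAL1-KD it had 216 and 211 CPM, both above the 185 and 180.3 CPM of TAL1-control, and the change of 0.20 ± 0.08 did not pass (edgeR adjusted p = 0.0590). It passed, as a rise, under 6 of 14 alternatives. Among them were fits without TAL1-KD replicate 1 (0.19) or replicate 2 (0.23), where the spread came from the TAL1-control pair alone. In UTX-KD, with 176 and 167 CPM, it overlapped the 173 and 175 CPM of UTX-control, and it passed as a fall under 3 of 14 alternatives, by 0.08 on the log2 scale without UTX-KD replicate 1 (edgeR adjusted p = 0.0352, 0.0230 to 0.895 over its alternatives).

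BCL11A, known for B-cell development and for silencing fetal globin in red cells, was lower in all 3 comparisons. It had 31.1 and 22.7 CPM in TAL1-KD, against 45.8 and 44.7 CPM in TAL1-control. It had 41.5 and 41.4 CPM in J4-2uM and 61.7 and 61.4 CPM in J4-control, and 58.1 and 56.4 CPM in UTX-KD and 64.7 and 63.5 CPM in UTX-control. No treated library reached its controls, and the 2 TAL1-KD libraries stood well apart from each other. The log2 fold change was -0.77 ± 0.14 in TAL1-KD (edgeR adjusted p = 0.00375), -0.57 ± 0.04 with GSK-J4 (adjusted p = 7.03e-09) and -0.19 ± 0.03 in UTX-KD (adjusted p = 0.000237). Without one or the other TAL1-KD library it was -1.01 or -0.56, still called. The UTX-KD call was lost in the fit over 12 libraries (adjusted p = 0.218, from 3.56e-10 over its alternatives).

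**Figure D3:**
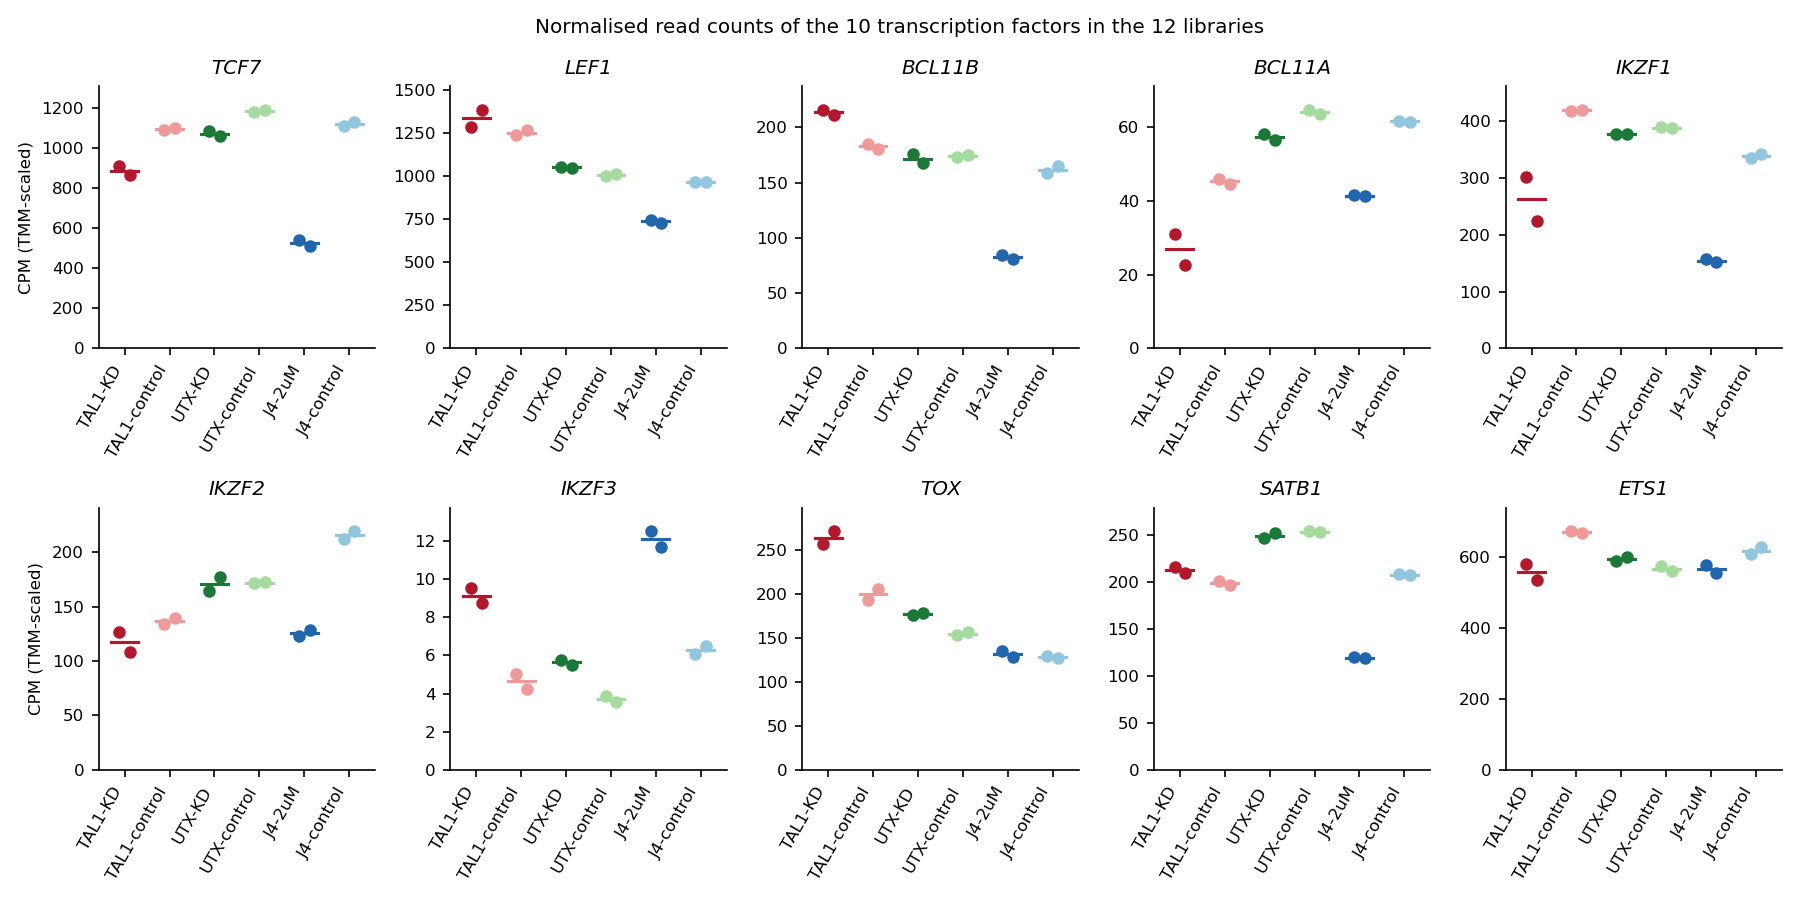
Normalised read counts (CPM, TMM-scaled) of the 10 factors in the 12 libraries. Points are libraries and lines are group means, with each treated group left of its control. In J4-2uM TCF7, BCL11B, IKZF1, IKZF2 and SATB1 lie well below J4-control, and IKZF3 lies above it.

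IKZF1, which encodes Ikaros, had the largest fall of the 10 with GSK-J4. It had 157 and 152 CPM in J4-2uM, against 335 and 342 CPM in J4-control. In TAL1-KD it had 302 and 224 CPM, against 418 and 420.0 CPM in TAL1-control, while 377 and 377 CPM in UTX-KD lay just below the 389 and 388 CPM of UTX-control. The log2 fold change was -1.12 ± 0.03 with GSK-J4 (edgeR adjusted p = 5.83e-12), -0.69 ± 0.14 in TAL1-KD (adjusted p = 0.00552) and -0.07 ± 0.03 in UTX-KD (adjusted p = 0.0647, not called). The value in TAL1-KD was -0.92 or -0.49 without one or the other TAL1-KD library, still called. The UTX-KD change passed under 4 of 14 alternatives, among them size factors of DESeq2 (edgeR adjusted p = 0.0466, 0.00310 to 0.775 over its alternatives).

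IKZF2, which encodes Helios, a factor of regulatory T cells, fell with GSK-J4. It had 123 and 129 CPM in J4-2uM and 212 and 219 CPM in J4-control, a log2 fold change of -0.77 ± 0.04 (edgeR adjusted p = 4.87e-10). The 127 and 108 CPM of TAL1-KD were below the 134 and 139.9 CPM of TAL1-control, and the change of -0.24 ± 0.10 did not pass (edgeR adjusted p = 0.0667). It passed under 6 of 14 alternatives. Among them were fits without TAL1-KD replicate 1 (-0.35) or replicate 2 (-0.13), where the spread came from the TAL1-control pair alone. It turned to 0.06 when trends with GC content and transcript length were removed (edgeR adjusted p = 0.474). In UTX-KD, with 165 and 178 CPM, it overlapped the 172 and 172 CPM of UTX-control, and it passed as a fall of 0.09 without UTX-KD replicate 2 (edgeR adjusted p = 0.0209, the lowest of its alternatives, which reached 0.940).

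IKZF3, which encodes Aiolos, a factor of maturing B cells, was higher in all 3 comparisons, whereas IKZF1 and IKZF2 fell with GSK-J4. It had 12.5 and 11.7 CPM in J4-2uM, against 6.08 and 6.47 CPM in J4-control. It had 9.55 and 8.73 CPM in TAL1-KD and 5.04 and 4.24 CPM in TAL1-control, and 5.78 and 5.49 CPM in UTX-KD and 3.89 and 3.57 CPM in UTX-control. These low levels rested on 205 to 1040 reads per library, and no treated library overlapped its controls. The log2 fold change was 0.95 ± 0.07 with GSK-J4 (edgeR adjusted p = 3.90e-08), 0.95 ± 0.14 in TAL1-KD (adjusted p = 0.00162) and 0.57 ± 0.09 in UTX-KD (adjusted p = 3.43e-05). All 3 calls held under every alternative in which the gene was tested. Among B-cell markers, all 5 tested rose with GSK-J4, by 1.15 for CD79A and 0.55 for EBF1. The 2 tested in UTX-KD rose too, by 0.51 for CD79A and 0.69 for EBF1 (log2 scale, edgeR). Over all genes tested, 37.9% rose with GSK-J4 and 25.2% in UTX-KD. MS4A1 and PAX5 were near the floor, at 0.277 and 0.347 CPM and 0.144 and 0.141 CPM in J4-2uM. In J4-control they had 0.07 and 0.091 CPM and 0.035 and 0.065 CPM. Genes this low are tested only where a group is high enough, so the count of 5 favours rises. Of 3 tested in TAL1-KD, CD79B rose (1.08 ± 0.32, edgeR adjusted p = 0.0248), while EBF1 (0.61, adjusted p = 0.0606) and CD79A (-0.16, adjusted p = 0.112) did not pass. The part of these markers in the IKZF3 values was not tested.

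Relative to IKZF1 per transcript length, IKZF3 was at 5.13% and 4.93% in J4-2uM and at 1.17% and 1.22% in J4-control. It was at 2.03% and 2.51% in TAL1-KD and at 0.775% and 0.649% in TAL1-control, and at 0.986% and 0.938% in UTX-KD and at 0.643% and 0.592% in UTX-control. The share was higher in the treated libraries of all 3 comparisons, and it stayed small in each. IKZF2 over IKZF1 was 0.528 and 0.570 in J4-2uM and 0.426 and 0.432 in J4-control, and 0.282 and 0.325 in TAL1-KD and 0.216 and 0.225 in TAL1-control. In UTX-KD this ratio was 0.294 and 0.318, overlapping the 0.298 and 0.300 of UTX-control.

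BCL11A relative to BCL11B went in opposite directions with GSK-J4 and in TAL1-KD. It was at 49.1% and 51.2% in J4-2uM and at 39.0% and 37.3% in J4-control. It was at 14.4% and 10.8% in TAL1-KD and at 24.7% and 24.8% in TAL1-control, and at 33.1% and 33.7% in UTX-KD and at 37.4% and 36.3% in UTX-control. These ratios were described and not tested.

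**Figure D4:**
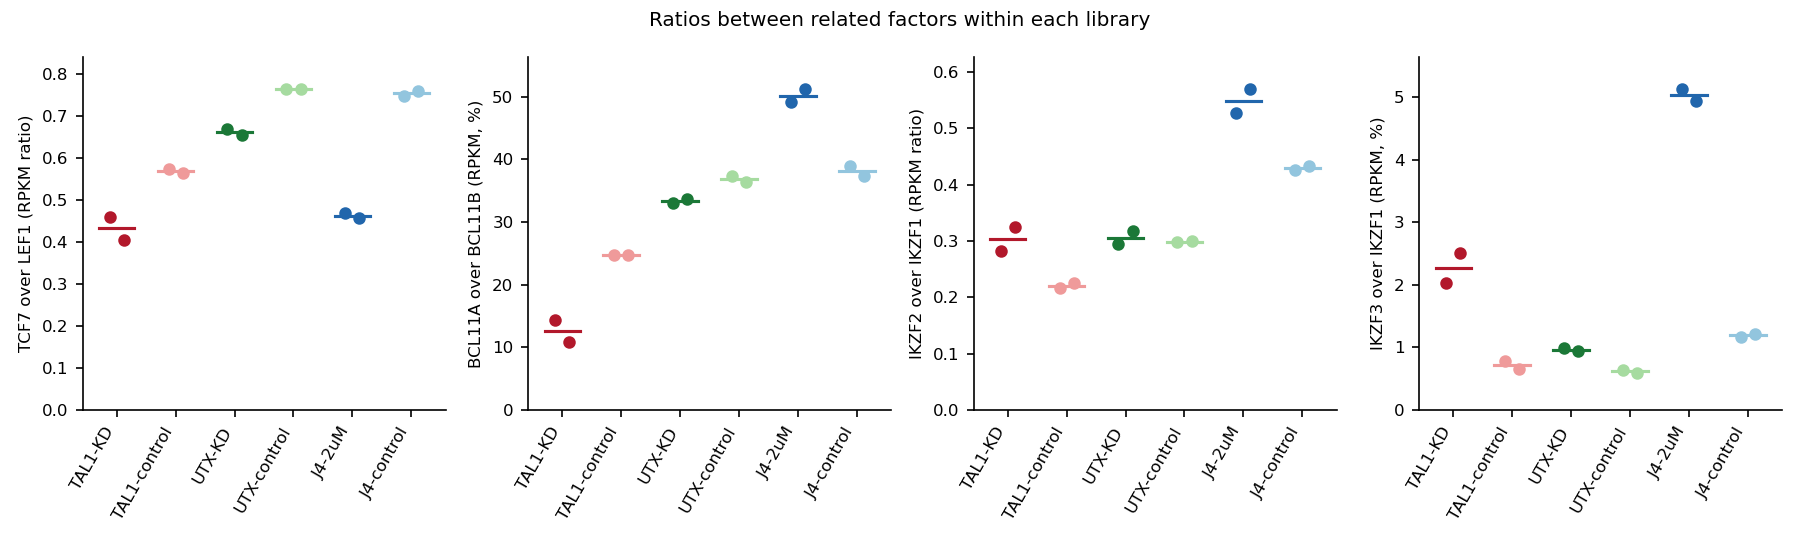
Ratios between related factors within each library, from RPKM. Points are libraries and lines are group means, with each treated group left of its control. IKZF3 over IKZF1 reached 5.13% in J4-2uM, and TCF7 over LEF1 was below control in all 3 treated groups.

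TOX, the HMG-box factor of CD4 development, rose in both shRNA comparisons and did not pass with GSK-J4. It had 256 and 271 CPM in TAL1-KD and 194 and 205 CPM in TAL1-control, a log2 fold change of 0.38 ± 0.08 (edgeR adjusted p = 0.00673). It had 176 and 178 CPM in UTX-KD and 153 and 157 CPM in UTX-control, a log2 fold change of 0.17 ± 0.03 (edgeR adjusted p = 0.000108). In J4-2uM, with 135 and 128 CPM, it overlapped the 129 and 127 CPM of J4-control, with a 95% interval of -0.03 to 0.12 for the log2 fold change. The TAL1-KD call was lost without TAL1-control replicate 1 (log2 fold change 0.34) or replicate 2 (0.42), where the spread came from the TAL1-KD pair alone. With GSK-J4 it passed under 4 of 14 alternatives, among them without J4-2uM replicate 2 (0.08, adjusted p = 0.0226) and when libraries were scaled by their totals alone (0.22, adjusted p = 5.89e-05), within a range up to 0.985.

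SATB1, the chromatin organiser of thymocytes, fell with GSK-J4. It had 120.0 and 119 CPM in J4-2uM, against 208 and 208 CPM in J4-control, and the log2 fold change was -0.79 ± 0.03 (edgeR adjusted p = 9.41e-11). It had 216 and 210.4 CPM in TAL1-KD and 201 and 197 CPM in TAL1-control, and 247 and 252 CPM in UTX-KD and 254 and 253 CPM in UTX-control. Neither shRNA comparison passed, with intervals of the log2 fold change of -0.10 to 0.26 in TAL1-KD and -0.11 to 0.02 in UTX-KD. In TAL1-KD it passed as a rise of 0.22 when trends with GC content and transcript length were removed (edgeR adjusted p = 0.0338, 0.0162 to 0.971 over its alternatives).

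ETS1, the founding member of the ETS family, changed little. It had 579 and 534 CPM in TAL1-KD and 672 and 667 CPM in TAL1-control, a log2 fold change of -0.29 ± 0.10 (edgeR adjusted p = 0.0362). It had 577 and 556 CPM in J4-2uM and 607 and 627 CPM in J4-control, a log2 fold change of -0.12 ± 0.03 (edgeR adjusted p = 0.00591). In UTX-KD it had 589 and 601 CPM, above the 574 and 559 CPM of UTX-control, and did not pass (log2 fold change 0.05, edgeR adjusted p = 0.197). It passed there as a rise with library totals alone (0.14, edgeR adjusted p = 0.000600) and with GC and length trends removed (0.05, adjusted p = 0.0499), within a range up to 0.573. The TAL1-KD call was lost with size factors of DESeq2 (edgeR adjusted p = 0.0616) and with GC and length trends removed (-0.16, adjusted p = 0.150). It was also lost without TAL1-control replicate 1 (-0.28) or replicate 2 (-0.30), where the spread came from the TAL1-KD pair alone. The GSK-J4 call was lost under 4 of 14 alternatives, among them without J4-control replicate 2 (adjusted p = 0.132, 3.14e-05 to 0.150 over its alternatives), and its direction turned to 0.05 when libraries were scaled by their totals alone.

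TCF7, BCL11A and IKZF3, 3 of the 10 genes, were called the same way in all 3 comparisons, TCF7 and BCL11A lower and IKZF3 higher. Among the 16103 genes tested in all 3, 6.98% were lower and 8.02% higher throughout. The 3 comparisons share no libraries, but all used Jurkat cells, and TAL1-KD and UTX-KD both received doxycycline. The other seven were called in 1 or 2 comparisons, and none of the 10 was called in opposite directions.

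The control groups differed from one another as well, in cell line, serum and vehicle, and their levels are given without a test. IKZF3 had the widest spread, with 6.27 CPM in J4-control and 3.73 CPM in UTX-control. IKZF2 averaged 216 CPM in J4-control and 137 CPM in TAL1-control, and TOX averaged 199.5 CPM in TAL1-control and 128 CPM in J4-control. TCF7 differed least, with 1184 CPM in UTX-control and 1093 CPM in TAL1-control.

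Whether responses differed between treatments was tested as an interaction over 8 libraries. The UTX-KD and GSK-J4 responses differed for all 10 genes, against 58.4% of all genes tested. The difference was 1.05 ± 0.05 on the log2 scale for IKZF1 (edgeR adjusted p = 2.93e-17), 0.91 ± 0.05 for TCF7 (adjusted p = 2.37e-15) and 0.91 ± 0.05 for BCL11B (adjusted p = 3.18e-15). IKZF3 was the gene with a negative difference, -0.39 ± 0.11 (edgeR adjusted p = 0.00450), its rise being larger with GSK-J4, and it was lost in the fit over 12 libraries (adjusted p = 0.0541) and without UTX-control replicate 1 (0.0640, 0.00143 to 0.0640 over its alternatives). The difference for TOX, 0.11 ± 0.05 (edgeR adjusted p = 0.0471), was lost under 14 of 18 alternatives, with an adjusted p of up to 0.409.

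TAL1-KD and GSK-J4 differed for 7 of the 10 genes, against 53.9% of all genes. BCL11B had the largest difference, 1.19 ± 0.08 (edgeR adjusted p = 1.46e-06), followed by SATB1 with 0.90 ± 0.08 (adjusted p = 6.16e-06) and TCF7 with 0.79 ± 0.10 (adjusted p = 6.55e-05). IKZF1, 0.46 ± 0.16 (edgeR adjusted p = 0.0293), was lost under 9 of 18 alternatives, among them the removal of any TAL1-control, J4-2uM or J4-control library, with adjusted p from 1.39e-09 to 0.605. BCL11A, IKZF3 and ETS1 did not pass, with intervals of the difference of -0.52 to 0.17, -0.30 to 0.36 and -0.36 to 0.07. Without TAL1-KD replicate 1, BCL11A (-0.42) and ETS1 (-0.20) passed. With library totals alone ETS1 passed as well (-0.48), and the differences of LEF1, IKZF1, IKZF2 and TOX were lost.

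TAL1-KD and UTX-KD differed for 5 of the 10, against 50.1% of all genes. IKZF1 (-0.60 ± 0.16, edgeR adjusted p = 0.0119), BCL11A (-0.56 ± 0.16, adjusted p = 0.0171) and ETS1 (-0.31 ± 0.09, adjusted p = 0.0147) were lower in TAL1-KD relative to UTX-KD. BCL11B (0.27 ± 0.07, adjusted p = 0.0127) and TOX (0.24 ± 0.08, adjusted p = 0.0269) were higher by edgeR. Over 18 alternatives the call was lost 7 times for BCL11B, 8 times for TOX, 5 times each for BCL11A and ETS1 and 1 time for IKZF1. With single libraries left out, the count was higher without TAL1-KD replicate 1. It was lower without any UTX-KD or UTX-control library or TAL1-control replicate 1, the spread then resting on the pairs that remained. The rise of IKZF3 was not shown to differ between the 2 shRNA comparisons (0.42, interval 0.05 to 0.78, edgeR adjusted p = 0.0568), but the difference passed under 7 of 17 alternatives, with GC and length trends removed (0.49, adjusted p = 0.0180) and in the fit over 12 libraries (0.0383) among them, in a range of 0.00787 to 0.541.

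**Figure D5:**
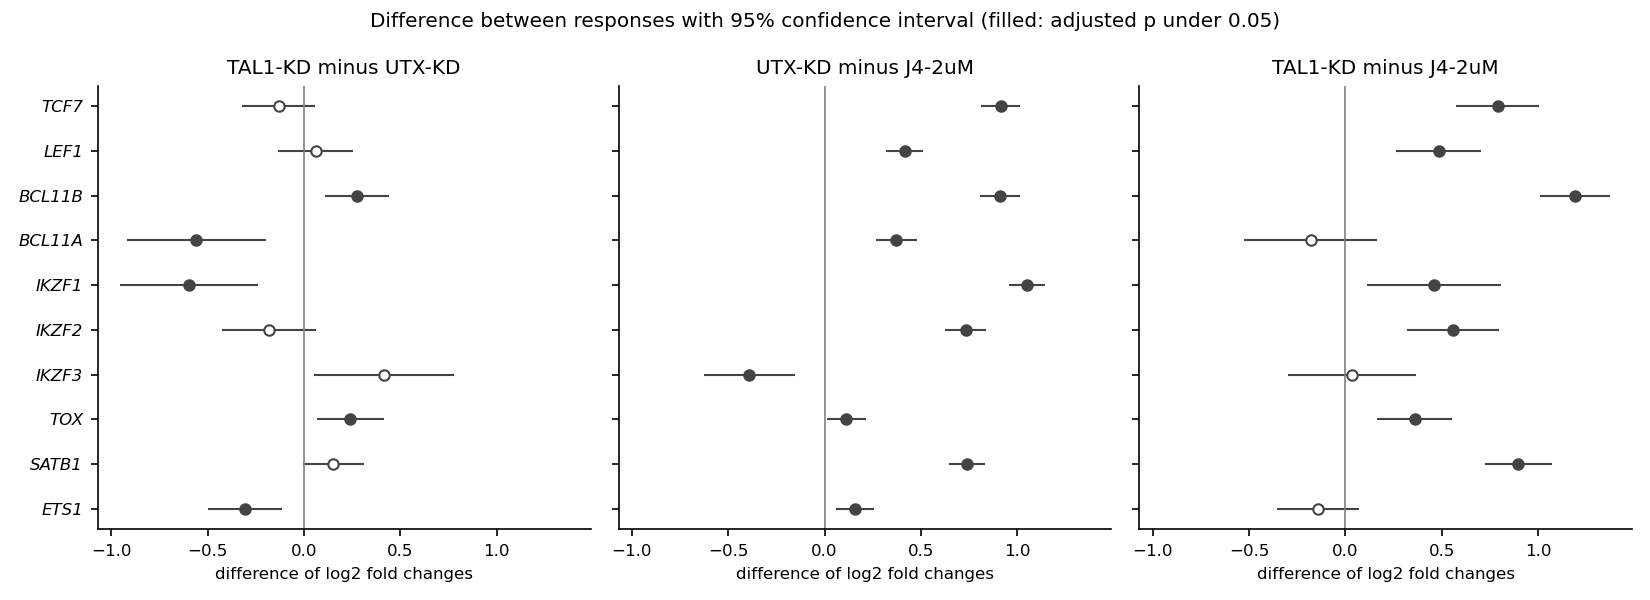
Difference between log2 fold changes of 2 treatments for each factor, with 95% confidence intervals from edgeR. Filled points had an adjusted p under 0.05. In the UTX-KD minus J4-2uM panel all 10 are filled and 9 lie above 0.

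Genes that work with these factors were counted in lists drawn up by name, with earlier results of these data known and no test of a list. The background was, as above, 37.9% of genes higher and 36.9% lower with GSK-J4, 26.3% and 27.9% in TAL1-KD, and 25.2% and 25.3% in UTX-KD. With scaling by library totals alone the higher share of all calls was 63.6% (50.7% by TMM) with GSK-J4, 35.5% (48.5%) in TAL1-KD and 70.1% (49.8%) in UTX-KD. Relatives of the 10 genes did not share one direction with GSK-J4: of 14 tested, 8 rose and 4 fell (edgeR, median log2 fold change 0.25). TOX2, a relative of TOX, rose by 2.19 ± 0.08 with GSK-J4 and by 0.60 ± 0.09 in UTX-KD and fell by 1.32 ± 0.13 in TAL1-KD on the log2 scale. ELF1, an ETS factor, rose in all 3 comparisons by 0.50 with GSK-J4, 0.65 in TAL1-KD and 0.20 in UTX-KD. By contrast FLI1, another ETS factor, fell in all 3, by 0.68 with GSK-J4, 0.59 in TAL1-KD and 0.15 in UTX-KD. In TAL1-KD 4 of 14 relatives rose and 6 fell, and in UTX-KD 2 of 12 rose and 4 fell, or 6 and 3 with scaling by library totals alone.

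Of 19 other early T-cell transcription factors tested, 10 rose and 7 fell with GSK-J4, 7 rose and 5 fell in TAL1-KD, and 10 rose and 3 fell in UTX-KD. With library totals alone these were 12 and 2 with GSK-J4 and 5 and 5 in TAL1-KD, and in UTX-KD 11 rose and 8 did not pass. RUNX1, a core-binding factor of T-cell enhancers, fell by 1.20 ± 0.03 with GSK-J4 and by 0.29 ± 0.09 in TAL1-KD on the log2 scale. ZBTB7B, the CD4-lineage factor ThPOK, rose in all 3 comparisons. Its rise was 2.21 ± 0.09 with GSK-J4, 1.22 ± 0.28 in TAL1-KD and 0.63 ± 0.21 in UTX-KD. GATA3, required for T-cell and CD4 development, rose by 0.77 ± 0.03 with GSK-J4, 1.46 ± 0.11 in TAL1-KD and 0.42 ± 0.03 in UTX-KD. BCL6 rose by 1.15 ± 0.07 with GSK-J4, 1.09 ± 0.12 in TAL1-KD and 0.28 ± 0.08 in UTX-KD.

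Of the 16 NuRD and corepressor partners of IKZF and BCL11 proteins, 14 fell and 2 rose with GSK-J4, though 9 fell and 3 rose with scaling by library totals alone. The NuRD subunits GATAD2A and MBD3 fell by 0.81 ± 0.03 and 0.86 ± 0.04, and GATAD2B rose by 0.56 ± 0.04. Of 15 tested in UTX-KD, 8 fell and 1 rose (5 and 2 with library totals alone), and in TAL1-KD 1 fell and 2 rose of 15 (4 and 2), while 12 did not pass. Among 13 genes, 12 TCF/LEF coregulators and the target gene AXIN2, 8 rose, AXIN2 among them, and 4 fell with GSK-J4, 6 rose and 1 fell in TAL1-KD, and 3 rose and 4 fell in UTX-KD. With library totals alone these were 10 and 3, 5 and 2, and 5 and 2. HDAC2 fell by 1.27 ± 0.04 and the corepressor TLE2 rose by 1.18 ± 0.04 with GSK-J4, and CTNNB1, which encodes β-catenin, rose by 0.52 ± 0.08 in TAL1-KD. Of 5 genes of the cereblon ubiquitin ligase, through which lenalidomide directs IKZF1 and IKZF3 proteins to degradation, 4 fell and 1 rose with GSK-J4 (3 and 2 with library totals alone), led by CUL4A with -1.02 ± 0.03. In UTX-KD 3 of these 5 fell and 2 did not pass, and with library totals alone 3 fell and 2 rose. In TAL1-KD 2 rose and 3 did not pass, against 1 rising and 1 falling with library totals alone.

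Of 15 T-cell genes that these factors regulate, 10 fell and 4 rose with GSK-J4, 9 fell and 2 rose in TAL1-KD, and 4 fell and 6 rose in UTX-KD, where the falls were close to the background share. With library totals alone these were 10 and 5, 10 and 1, and 4 and 8. RAG1 and RAG2, the recombinase genes, fell by 1.73 ± 0.03 and 3.97 ± 0.08 with GSK-J4, and RAG1 fell by 0.52 ± 0.03 in UTX-KD. In TAL1-KD the coreceptor gene CD4 fell by 1.32 ± 0.14 and DNTT, the terminal transferase gene, by 0.88 ± 0.09. CD3G fell by 0.62 ± 0.04 with GSK-J4 and CD3E rose by 0.33 ± 0.03 in UTX-KD (log2 scale, edgeR).

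Likeness of pattern was measured as Pearson's r of log2(CPM + 1), each library minus the mean of its own controls, over the 12 libraries and 12953 candidate genes. These libraries fall into treated and control groups, so r is a description of shared shifts and has no p. MYC was most like SATB1 (r = 0.998), PHACTR4 most like IKZF1 (0.998) and ATP6V0D1 most like TCF7 (0.997). GIMAP5, a lymphocyte GTPase gene, was most like LEF1 (0.993). For BCL11B it was ZBED6CL (0.996), for IKZF2 PRKX (0.996), for IKZF3 PANX2 (0.995), for TOX RRAGD (0.996) and for ETS1 NLRC3 (0.991).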

How the data were processed

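The authors deposited 1 table per comparison with raw read counts per Ensembl gene for 4 libraries, per the file headers, and replicates were not pooled. The submitters' processing notes name build hg19 with HTSeq 0.6.1p1, TopHat2 2.0.12 and DESeq2. The strand setting, the annotation and the treatment of multiply mapping reads are not given in the sources used here. The deposited fold changes and p-values were not used.

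From the counts, edgeR 4.0.16 in R 4.3.3 gave quasi-likelihood tests on the 4 libraries of each comparison (filterByExpr, TMM, two-sided, Benjamini-Hochberg over all genes tested, threshold 0.05). All 10 members passed the filter in each comparison. Differences between comparisons were interactions over 8 libraries, and intervals are 95%. CPM levels used TMM over 12 libraries. Lengths came from GENCODE 29 and promoters from RefSeq (GRCh38.p14), and as the counts used hg19 no coordinates come from the files. The members and gene lists (116 of 118 list entries had 1 identifier) were chosen with earlier results of these data known. All 10 members were named. For each list up to 3 called genes with the smallest adjusted p per comparison could be named, and for likeness the genes with the highest r among those with a mean of at least 1 CPM. Some genes eligible by these rules are not reported here. Replicate libraries differed beyond sampling noise (chi-square per gene of 2.02 to 34.1), so none was counted as the same library read again. This check cannot tell separate cultures from separate libraries of 1 culture. Depth of 55524079 to 82534711 reads gave IKZF3, the lowest member, at least 205 reads. The procedure was tested on simulated data. Alternatives were DESeq2 1.42.0 (size factors and Wald test), library totals alone, no filter and a stricter one, a fit over 12 libraries, GC and length offsets, a replicate block, stricter thresholds and each library left out.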

Additional observations from a re-analysis of the deposited data

Results flagged for a closer look

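The responses of several factors differed between treatments by an interaction test in edgeR (adjusted p under 0.05). Values are differences of log2 fold changes, and no explanation was weighed.

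TAL1-KD minus UTX-KD gave 0.27 for BCL11B, -0.56 for BCL11A, -0.60 for IKZF1, 0.24 for TOX and -0.31 for ETS1. UTX-KD minus J4-2uM gave 0.91 for TCF7, 0.42 for LEF1, 0.91 for BCL11B, 0.37 for BCL11A and 1.05 for IKZF1. The same difference was 0.73 for IKZF2, -0.39 for IKZF3, 0.11 for TOX, 0.74 for SATB1 and 0.16 for ETS1. TAL1-KD minus J4-2uM gave 0.79 for TCF7, 0.48 for LEF1, 1.19 for BCL11B, 0.46 for IKZF1, 0.56 for IKZF2, 0.36 for TOX and 0.90 for SATB1.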

How the results depend on the processing

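Counts and changes under other settings are given for the comparisons and for differences between them, and the cause of each shift was not tested. A fit with a library left out takes its spread from the groups that keep both, so its calls do not measure support. Of the checks on fold changes within a comparison, 360 kept direction and side of the threshold, 29 gained a call, 17 lost one and 12 turned. For differences between comparisons these were 450, 20, 56 and 13. Scaling by library totals alone moved the median of all genes by -0.14 in TAL1-KD, 0.09 in UTX-KD and 0.17 with GSK-J4 (log2), and the share of calls that were higher to 35.5% (48.5% by TMM), 70.1% (49.8%) and 63.6% (50.7%). Group levels moved by more than the replicate SD in 45 of 60 cases with library totals and in 17 of 60 with DESeq2 size factors.

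For TAL1-KD against TAL1-control, members higher (2) came to 1 with a filter of 10 CPM in 2 libraries, 4 with GC and length offsets, 4 with the replicate block and these offsets, 1 at a log2 fold change of at least 0.5, and 1 to 3 with single libraries left out. Members lower (4) came to 2 at an adjusted p under 0.01, 2 at a log2 fold change of at least 0.5, and 2 to 5 with single libraries left out. All genes higher (4424) came to 2872 at 0.01, 2675 at 0.5 and 2431 to 5869 with libraries left out, and all genes lower (4696) to 3086 with the stricter filter, 3046 at 0.01 and 3094 to 6083 with libraries left out. LEF1 turned to -0.011 with the stricter filter and -0.075 with library totals, SATB1 to -0.0033 and -0.065, and IKZF2 to 0.061 with GC and length offsets and 0.061 with the replicate block and offsets.

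For UTX-KD against UTX-control, members higher (2) came to 1 with the stricter filter, 4 with library totals and 1 at 0.5. Members lower (2) came to 0 in the 12-library fit of edgeR, 4 with GC and length offsets, 4 with the replicate block and offsets, and 0 at 0.5. All genes higher (4240) came to 1066 at 0.5, and lower (4269) to 2693 with library totals, 2446 in the 12-library fit and 661 at 0.5. With library totals BCL11B turned to 0.052, IKZF1 to 0.027, IKZF2 to 0.062 and SATB1 to 0.048, and IKZF2 ran from -0.086 to 0.020 with single libraries left out.

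For J4-2uM against J4-control, members higher (1) came to 2 with library totals, 2 with GC and length offsets, 2 with the replicate block and offsets, and 1 to 2 with libraries left out. All genes higher (6794) came to 3897 at 0.5, and lower (6616) to 4397 with the stricter filter and 3668 at 0.5. ETS1 turned to 0.053 with library totals.

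For TAL1-KD minus UTX-KD, members that differed (5) came to 0 at 0.01, 2 at 0.5 and 1 to 9 with libraries left out. LEF1 turned to -0.047 with the stricter filter and -0.21 with library totals, IKZF2 to 0.12 with offsets and 0.12 with the replicate block and offsets, and with library totals TOX to -0.028 and SATB1 to -0.11. For UTX-KD minus J4-2uM, the count (10) came to 5 at 0.5. For TAL1-KD minus J4-2uM, it (7) came to 4 with library totals and 4 at 0.5. IKZF3 turned to -0.059 with the stricter filter and -0.31 with library totals, and with single libraries left out it ran from -0.079 to 0.17 and BCL11A from -0.42 to 0.033.

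Labels give replicate numbers but do not say that they mark shared cultures. Deviations of same-numbered libraries correlated at 0.17, -0.02 and -0.03 in the TAL1, UTX and J4 comparisons, so the numbers were not treated as pairs. With the replicate block, members called were 2 higher and 5 lower in TAL1-KD (IKZF2 gained, edgeR adjusted p = 0.0249), 2 and 2 in UTX-KD, and 1 and 8 with GSK-J4. For IKZF3, TAL1-KD minus UTX-KD then passed (adjusted p = 0.0450), and for TOX, UTX-KD minus J4-2uM was lost (0.0659). It changed no other member's call. IKZF3 is not tested under the stricter filter in TAL1-KD and UTX-KD.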
